A study of Homo sapiens with 6 samples.

Results

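Actin and a set of actin-binding genes that serum response factor (SRF) is known to drive were followed in MDA-MB-453 cells after DUSP6 knockdown. The 10 genes named were ACTB, ACTG1, SRF, VCL, FLNA, TPM1, TPM3, TPM4, MYL9 and CNN2, and each was taken as the row of the deposited table that carried its symbol. The table of 22807 genes held 9 of them, and MYL9 was not analysed here. All 9 passed the filter of a mean normalized value of at least 1 over the libraries, which left 12862 genes for testing. The genes were selected on their known link to SRF and with this same contrast in view, in which ACTB, often used as a reference gene, was lower. Their values are therefore given as a description. No p-value is printed for them, and the calls given for them below are no test of these genes.

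MDA-MB-453 is an established HER2+ breast cancer cell line, described as wild type in its labels, and it was the only line used. It was transfected either with scrambled siRNA (3 libraries) or with siRNA against DUSP6 (3 libraries), and the study describes 3 different siRNAs on each side without saying which library had which. The time between transfection and harvest was not given in the sources used here. Different siRNAs imply separate transfections, but the labels do not say whether the libraries came from separate cultures. The p-values measure only the spread between these samples, which includes any difference between the siRNAs. In bulk RNA, fewer cells expressing a gene and less of its RNA per cell cannot be told apart.

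SRF is a transcription factor that binds a short AT-rich element, the CArG box, together with partners of 2 kinds. The myocardin-related factors MRTFA and MRTFB are held in the cytoplasm by monomeric actin and enter the nucleus when actin polymerizes, where they drive actin itself, SRF and many actin-binding genes. The ternary complex factors ELK1, ELK3 and ELK4 are phosphorylated by ERK and drive immediate early genes such as EGR1 and FOS. DUSP6 is a phosphatase that removes the activating phosphates from ERK.

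The promoters of these genes were searched for CArG boxes. Each promoter window of the reference table ran from 250 bases before to 50 bases after a start site, and windows were held for 8 of the genes, 12 windows in all. ACTB was not analysed for this. The box was searched on both strands, which are equivalent for this palindromic pattern. An exact box lay in at least 1 window of 5 genes, SRF, ACTG1, CNN2, TPM4 and FLNA, and none was found in the windows of VCL, TPM1 or TPM3. Of all 27305 genes with a window, 1.6% held an exact box. The boxes are in capitals, with about 25 bases on either side where these lie before the start site, 5′ to 3′ on the strand of the gene, from RefSeq on GRCh38.p14. SRF, the factor itself, had 2 boxes, at -30 to -21 and at -10 to -1 from its start site (chr6:43171214-43171268, plus strand), ACTG1 had 1 at -94 to -85 (chr17:81512859-81512918, minus strand), CNN2 1 at -89 to -80 (chr19:1026494-1026553, plus strand), TPM4 1 at -173 to -164 (chr19:16067340-16067399, plus strand) and FLNA 1 at -94 to -85 (chrX:154374694-154374753, minus strand).
SRF: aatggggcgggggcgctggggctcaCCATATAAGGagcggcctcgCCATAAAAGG
ACTG1: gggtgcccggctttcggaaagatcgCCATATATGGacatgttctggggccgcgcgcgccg
CNN2: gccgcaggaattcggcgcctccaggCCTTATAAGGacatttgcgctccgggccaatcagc
TPM4: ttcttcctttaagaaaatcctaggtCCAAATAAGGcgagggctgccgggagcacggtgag
FLNA: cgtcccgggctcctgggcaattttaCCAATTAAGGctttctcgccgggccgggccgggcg

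The 5 genes with an exact box took different courses in the libraries described below: SRF, TPM4 and FLNA were lower after DUSP6 siRNA, ACTG1 overlapped between the groups and CNN2 was level. Among all tested genes with a window, 25.5% of the 145 with an exact box were called lower and 17.2% higher, against 24.6% and 19.7% of the 9982 without one. A match is a run of letters, not a bound site.

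The libraries held 45546981 to 85729785 reads in genes, and the values are reads per 1000000 scaled by the trimmed mean of M-values (TMM). One read was worth 0.0121 to 0.0202 of a value, and each of the 9 genes had at least 1849 reads in every library, so the spread between libraries and not counting set the precision. DUSP6 itself, the targeted gene, had values of 209, 110 and 114 in scrambled replicates 1 to 3 and 39.4, 24.5 and 35.2 after DUSP6 siRNA, a log2 difference of -2.05 ± 0.25 (SE; limma on log2(value + 1), adjusted p = 3.09e-04, lower in 3 of 3 libraries). By limma, 44.5% of the tested genes were called at an adjusted p under 0.05, 24.7% lower and 19.7% higher, so a call was common in this comparison. The scrambled libraries varied more than the DUSP6 siRNA libraries: the SD of log2 values was larger in them for 78.5% of tested genes. The 10 most abundant genes took 16.9% and 16.4% of reads in scrambled replicates 1 and 2 and 10.4% to 10.9% in the other libraries. The scale affects the split of calls. With TMM, 55.6% of calls were lower and the median log2 difference of all tested genes was -0.01, whereas scaling to the library total, an alternative added after seeing the data, gave 27.4% and a median of 0.20.

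ACTB encodes cytoplasmic beta-actin, the monomer of the filaments that shape the cell, and the study used its protein as a loading control on western blots. ACTB (Entrez Gene 60, chr7:5527148-5530601 on GRCh38) had normalized values of 2438, 1942 and 2082 in scrambled replicates 1 to 3 and of 1329, 1101 and 1170 after DUSP6 siRNA, given in the same order. The groups did not overlap: the highest DUSP6 siRNA library was at 0.684 times the lowest scrambled library. The mean went from 2154 ± 256 to 1200 ± 117 (SD, n = 3 each), a log2 difference of -0.84 ± 0.13 (SE), with the DUSP6 siRNA mean at 0.557 times the scrambled mean. The size depended on the scale: it was -0.61 with the library total, where the median gene stood at 0.20, and -0.49 after quantile normalization, and ACTB was the lowest or the second lowest of the 9 under each.

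ACTG1 (Entrez Gene 71, chr17:81509971-81512799) encodes gamma-actin, the other cytoplasmic actin, which differs from beta-actin by only a few residues. Its normalized values were 1423, 986 and 1476 in scrambled replicates 1 to 3 and 1090, 1031 and 993 after DUSP6 siRNA. The groups overlapped through scrambled replicate 2, which was lower than all 3 DUSP6 siRNA libraries, and the log2 difference was -0.30 ± 0.15. Without that library the difference was -0.48 and ACTG1 was among the genes called lower. The within-library ratio of ACTB to ACTG1, a quantity that the scaling between libraries cannot move, was 1.71, 1.97 and 1.41 in the scrambled libraries and 1.22, 1.07 and 1.18 in the DUSP6 siRNA libraries. These ranges did not overlap, so the reads of the pair shifted away from ACTB. Reads of the 2 actins and of their pseudogenes can be hard to separate. ACTG1P20, a processed copy of ACTG1, had values of only 21.0 to 36.6, and ACTBL2, an actin-like gene, had at most 0.0404.

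SRF (Entrez Gene 6722, chr6:43171269-43181506), which carries the 2 boxes printed above in front of its start site, was lower as well. Its normalized values were 60.2, 52.5 and 64.7 in scrambled replicates 1 to 3 and 37.4, 30.1 and 36.2 after DUSP6 siRNA. The groups did not overlap, with the highest DUSP6 siRNA library at 0.713 times the lowest scrambled one. The log2 difference was -0.76 ± 0.12 (means 59.1 ± 6.18 and 34.6 ± 3.92), with a ratio of means of 0.585. In both groups the second replicate was the lowest, as it was for ACTB.

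**Figure D1:**
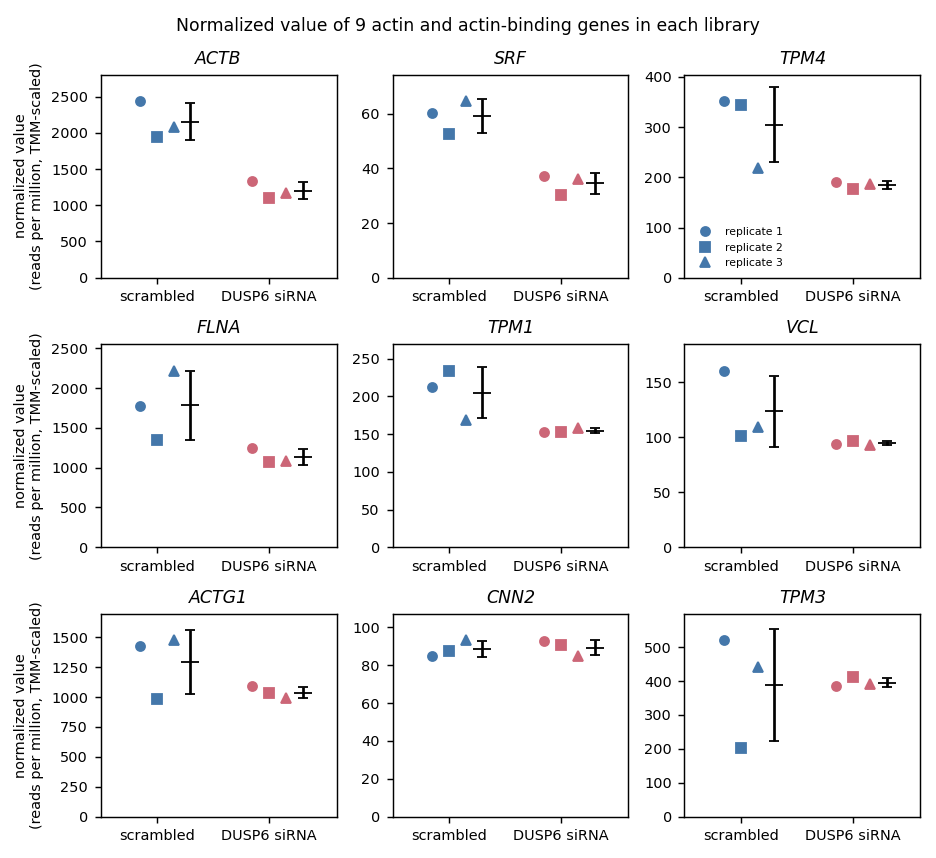
Normalized value (TMM-scaled reads per 1000000, axes from 0) of each of the 9 genes in the 3 scrambled (blue) and 3 DUSP6 siRNA (red) libraries, with marker shapes for the replicate and a black bar for the mean and SD. ACTB, SRF, TPM4, FLNA, TPM1 and VCL do not overlap between the groups, and the scrambled libraries scatter widely in TPM3, where replicate 2 lies at 204.

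FLNA (Entrez Gene 2316, chrX:154348531-154374634) encodes filamin A, a dimer that crosslinks actin filaments into networks and ties them to membrane receptors. Its normalized values were 1777, 1352 and 2219 in scrambled replicates 1 to 3 and 1245, 1071 and 1081 after DUSP6 siRNA. The ranges did not overlap, but by little, the highest DUSP6 siRNA value being 0.921 times the lowest scrambled one. The log2 difference was -0.63 ± 0.17, and it was -0.30 after quantile normalization, where FLNA was no longer called.

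VCL (Entrez Gene 7414, chr10:73998116-74121363) encodes vinculin, which anchors actin filaments at focal adhesions and cell junctions. Its values were 161, 101 and 109 in scrambled replicates 1 to 3 and 94.0, 96.4 and 92.8 after DUSP6 siRNA. Scrambled replicate 1 stood well above the rest, and the other scrambled libraries lay only just above the DUSP6 siRNA libraries. The log2 difference was -0.35 ± 0.16. VCL shares 11.1% of its exon bases with AP3M1, and since the reads were assigned without strand its values are uncertain.

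Tropomyosins are coiled-coil proteins that lie along the actin filament and set which other proteins reach it, and 3 of the genes encode them. TPM4 (Entrez Gene 7171, chr19:16067538-16103002) had values of 352, 344 and 218 in scrambled replicates 1 to 3 and of 191, 176 and 187 after DUSP6 siRNA, a log2 difference of -0.69 ± 0.17. TPM1 (Entrez Gene 7168, chr15:63042747-63071915) had 212, 234 and 168 against 153, 152 and 158, a difference of -0.39 ± 0.12. Neither gene overlapped between the groups, and for both of them scrambled replicate 3 was the lowest of its group. In TPM1 that library lay close to the DUSP6 siRNA libraries, at a ratio of 0.941 between the highest DUSP6 siRNA and the lowest scrambled value.

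TPM3 (Entrez Gene 7170, chr1:154155308-154192100), unlike TPM4 and TPM1, overlapped between the groups, and it did so through scrambled replicate 2. Its values were 521, 204 and 441 in scrambled replicates 1 to 3 and 385, 411 and 391 after DUSP6 siRNA, so that scrambled replicate 2 was at 0.391 times scrambled replicate 1. The log2 difference of 0.13 ± 0.29 turned to -0.28 without scrambled replicate 2 and was 0.40 without scrambled replicate 1. Without scrambled replicate 2 TPM1 was at -0.29 and TPM4 at -0.58, so TPM3 then lay close to TPM1. The share of TPM3 in the summed values of the 3 tropomyosins was 48.0%, 26.0% and 53.3% in the scrambled libraries and 52.8%, 55.6% and 53.1% in the DUSP6 siRNA libraries. TPM4 had 32.5%, 44.02% and 26.4% of the sum in the scrambled libraries and 26.2%, 23.9% and 25.3% in the others, so the make-up of the scrambled replicate 2 library differed from all the rest. TPM3P9, a processed copy of TPM3, had values of 17.4 to 29.2.

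CNN2 (Entrez Gene 1265, chr19:1026608-1039065) encodes calponin 2, an actin-binding protein of non-muscle and smooth muscle cells. Its values were 85.0, 87.7 and 93.2 in scrambled replicates 1 to 3 and 92.7, 90.6 and 84.7 after DUSP6 siRNA. The groups overlapped fully, with means of 88.6 ± 4.19 and 89.3 ± 4.18 and a log2 difference of 0.01 ± 0.09. With the library total the difference was 0.24, close to the shift of the median gene, and after quantile normalization it was 0.12.

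By the threshold used for all genes, 5 of the 9 genes were called lower (ACTB, SRF, TPM4, FLNA and TPM1), where the background was 24.7%, 0 were called higher, where it was 19.7%, and 4 were not called. In 6 of the 9 every DUSP6 siRNA library lay below every scrambled library, as in 31.1% of all tested genes, and in 0 every one lay above, as in 26.7%. These counts follow from how the genes were chosen and nothing is read from them. The median log2 difference of the 9 was -0.39. The calls of the single genes show only how far each depended on the processing, and are no support for a fall. ACTB, SRF and TPM4 were called lower under every setting and with each library left out. FLNA lost its call without a filter, after quantile normalization, with the library total, without DUSP6 siRNA replicate 2 and without DUSP6 siRNA replicate 3. TPM1 lost its call without a filter, after quantile normalization (-0.22), with the library total (-0.16) and without any 1 library other than scrambled replicate 3.

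**Figure D2:**
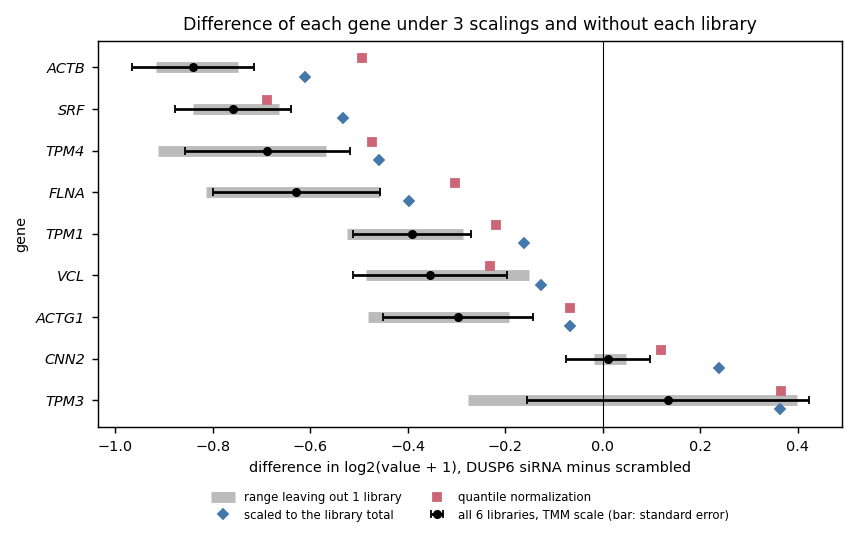
Difference in log2(value + 1), DUSP6 siRNA minus scrambled, for the 9 genes: black points with standard errors for all 6 libraries on the TMM scale, grey bars for the range when 1 library is left out, and coloured points for 2 other scalings. ACTB, SRF, TPM4, FLNA, TPM1, VCL and ACTG1 lie below 0 under each, and the grey bars of TPM3 and CNN2 cross 0.

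Per kilobase of the representative (MANE Select) transcript, the order of the levels was the same in both groups. In the scrambled libraries the mean values per kilobase were 1189 ± 141 for ACTB, 675 ± 140 for ACTG1, 210 ± 51.0 for FLNA, 168 ± 27.6 for TPM1, 123 ± 30.4 for TPM4, 55.0 ± 23.3 for TPM3, 41.2 ± 1.95 for CNN2, 22.5 ± 5.88 for VCL and 14.0 ± 1.46 for SRF. By this length ACTB led, and the transcription factor was the least abundant. Neighbours whose ranges over the scrambled libraries overlapped were FLNA and TPM1, TPM1 and TPM4, and TPM3 and CNN2. In the DUSP6 siRNA libraries ACTB stood at 662 ± 64.5 and ACTG1 at 541 ± 25.4 per kilobase, much closer to each other than before. The order below FLNA depends on the length used: with the merged exons of all transcripts TPM1, a gene of many isoforms, was 8th in the scrambled libraries. With that length SRF was 7th in the scrambled and 9th in the DUSP6 siRNA libraries, so the order was not the same in both groups.

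The genes that control SRF were read from the same fit. Of 6 cofactor genes 5 were tested, and MRTFB fell: its values were 95.4, 92.2 and 76.3 in scrambled replicates 1 to 3 and 46.7, 50.3 and 46.7 after DUSP6 siRNA (log2 difference -0.86 ± 0.11, adjusted p = 0.000323, limma). MRTFA, the other actin-sensing cofactor, had 62.8, 72.9 and 57.2 against 60.2, 55.4 and 59.1 (-0.13, adjusted p = 0.329), and the sign of that difference turned with the library total. The ratio of MRTFA to MRTFB within a library was 0.658, 0.790 and 0.750 in the scrambled and 1.29, 1.10 and 1.27 in the DUSP6 siRNA libraries, without overlap. Among the ERK-responsive cofactors ELK4 rose slightly, from 159, 171 and 179 to 194, 204 and 209 (0.26 ± 0.09, adjusted p = 0.037). That call was lost with the replicate block, without a trend, without scrambled replicate 1 and without any 1 of the DUSP6 siRNA libraries. ELK1 and ELK3 were not called. MYOCD, the muscle cofactor, was below the filter.

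Of 7 tested immediate early genes, the targets of the ERK arm of SRF, 2 fell and none was called higher, where the background was 24.7% lower and 19.7% higher, with a median of -0.51. MCL1, a survival factor, had 185, 307 and 274 in scrambled replicates 1 to 3 and 332, 316 and 348 after DUSP6 siRNA, without overlap but not called (0.41, adjusted p = 0.0754). It was called higher with the library total, after quantile normalization, with the replicate block and without scrambled replicate 2. MCL1 shares 5.27% of its exon bases with ADAMTSL4-AS1. EGR1, a zinc finger transcription factor with an exact CArG box in its window, had values of 221, 190 and 123 in scrambled replicates 1 to 3 and 88.0, 18.7 and 57.1 after DUSP6 siRNA (-1.90 ± 0.47, adjusted p = 0.0104). Without DUSP6 siRNA replicate 2 the difference was -1.27 and without DUSP6 siRNA replicate 1 it was -2.36, and EGR1 was called lower in both. JUNB, a subunit of AP-1, had 77.3, 96.5 and 70.9 against 68.3, 35.5 and 49.7 (-0.70 ± 0.21, adjusted p = 0.0257), and shares 14.2% of its exon bases with HOOK2. FOS, the classical SRF target, was at 60.1, 38.6 and 56.7 against 48.3, 23.5 and 39.1, and these groups overlapped (-0.51, adjusted p = 0.129). DUSP6 siRNA replicate 2 was the lowest library for all 3. The JUNB call was lost without a filter, with the library total, after quantile normalization and without any 1 of 4 libraries.

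Of 17 tested cytoskeletal genes that MRTF and SRF are known to drive, 4 fell, none was called higher and 13 were not called, a share near the background of 24.7% lower, with a median of -0.06 beside the -0.01 of all tested genes. THBS1, the secreted matrix protein thrombospondin 1, had values of 877, 622 and 771 in scrambled replicates 1 to 3 and 288, 186 and 273 after DUSP6 siRNA (-1.61 ± 0.18, adjusted p = 0.000195). ACTN1, which encodes the crosslinker alpha-actinin 1, went from 292, 254 and 247 to 172, 156 and 161 (-0.69, adjusted p = 0.000563). LIMA1, an actin-bundling LIM protein, went from 49.1, 52.3 and 41.7 to 28.7, 32.4 and 29.2 (-0.64, adjusted p = 0.00183). All 3 were separated between the groups. LPP, a LIM protein of focal adhesions, was the 4th (-0.41, adjusted p = 0.0101), and its call was lost with the library total and after quantile normalization. CCN1, a matricellular protein, had 82.0, 46.6 and 38.0 against 38.2, 18.6 and 33.4 and missed the threshold (-0.85 ± 0.31, adjusted p = 0.0504). CCN1 was called lower with the replicate block (limma adjusted p = 0.00315), without scrambled replicate 3 (-1.08) and without DUSP6 siRNA replicate 1 (-1.05). It was at -0.54 without scrambled replicate 1 and -0.55 without DUSP6 siRNA replicate 2. Genes of this list were also called higher with 2 other scalings, 4 with the library total and 3 after quantile normalization.

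**Figure D3:**
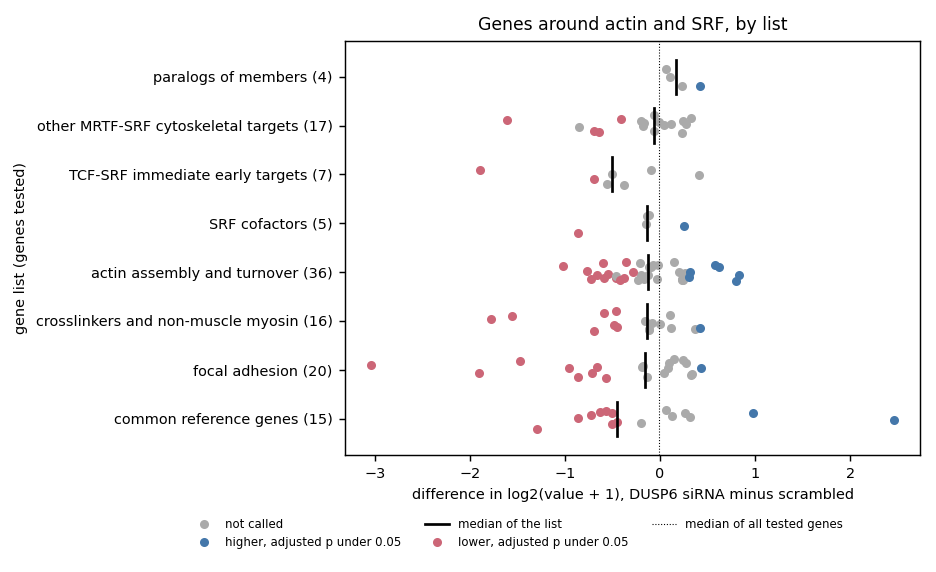
Difference in log2(value + 1), DUSP6 siRNA minus scrambled, of each tested gene (points) in 8 lists around actin and SRF, with black ticks for the list median, a dotted line for the median of all tested genes (-0.01) and colours for the limma call. Red points lie in every list but the paralogs, and the lowest point is TNS1 at -3.04.

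The closest relatives of the 10 genes named were looked up next, including those of MYL9, which was itself not analysed. Of 10 paralogs considered 4 were tested, of which 1 rose and 3 were not called, and the muscle actins ACTA1, ACTA2, ACTC1 and ACTG2, calponin 1 (CNN1) and filamin C (FLNC) were below the filter. MYL12B, a myosin regulatory light chain, is a relative of MYL9 and not of the 9 genes. It rose from 139, 137 and 145 to 176, 199 and 187 (0.41 ± 0.09, adjusted p = 0.00454). MYL12A, the neighbouring paralog of MYL12B (0.11), CNN3 (0.07) and TPM2 (0.23) were not called.

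Several single regulators of actin filaments were chosen after their values were seen. RHOC, a small GTPase, had values of 254, 244 and 241 in scrambled replicates 1 to 3 and 79.9, 69.2 and 78.8 after DUSP6 siRNA (-1.69 ± 0.09, adjusted p = 4e-06). The scrambled libraries were close together for this gene and far above the others. DIAPH3, a formin that elongates filaments, went from 29.6, 23.2 and 21.6 to 13.3, 12.0 and 12.1 (-0.93, adjusted p = 0.000628). MYLK, the myosin light chain kinase, was low throughout, at 2.13, 2.18 and 1.72 against 0.748, 0.501 and 0.664 (-0.88, adjusted p = 0.000508).

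Related genes among these regulators went in opposite directions. ROCK2, a serine/threonine kinase, rose from 4.67, 4.41 and 3.48 to 8.35, 9.66 and 9.83 (0.99 ± 0.13, adjusted p = 0.000414), while ROCK1 fell from 97.4, 100 and 72.0 to 58.1, 62.2 and 59.5 (-0.56, adjusted p = 0.0075). SSH1, a phosphatase that activates cofilin, rose (0.38, adjusted p = 0.0104), and its relative SSH3 fell (-0.81, adjusted p = 0.00018). The ratio of ROCK2 to ROCK1 was 0.0440 to 0.0484 in the scrambled and 0.144 to 0.165 in the DUSP6 siRNA libraries, and that of SSH1 to SSH3 was 0.656 to 0.689 and 1.37 to 1.78. ARHGEF1, a guanine nucleotide exchange factor, rose as well (0.50, adjusted p = 0.0193). The call of ARHGEF1 was lost without any 1 of the DUSP6 siRNA libraries, and that of SSH1 without DUSP6 siRNA replicate 2.

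Of 36 tested genes that assemble and turn over filaments, 12 fell, 6 rose and 18 were not called (median -0.12), beside a background of 24.7% lower and 19.7% higher. ENAH and EVL, which protect growing filament ends, fell by 1.02 and 0.73 on the log2 scale (adjusted p = 0.000109 and 0.00252). DSTN, the depolymerizing protein destrin, went from 439, 439 and 424 to 249, 249 and 264 (-0.77, adjusted p = 0.000141). TMSB4X (thymosin beta 4) rose from 165, 108 and 154 to 231, 256 and 244 (0.79 ± 0.15, adjusted p = 0.00282), and TMSB10 fell from 208, 215 and 214 to 178, 150 and 170 (-0.36, adjusted p = 0.012). PFN2 (profilin 2) rose from 18.6, 13.2 and 14.3 to 25.9, 33.5 and 24.9 (0.83, adjusted p = 0.00279), and PFN1, which shares 6.94% of its exon bases with ENO3, fell (-0.47, adjusted p = 0.0331). WASF1, an activator of branched assembly, rose (0.62, adjusted p = 0.0142). The calls of WASF1 and TMSB10 were lost without DUSP6 siRNA replicate 2, and that of PFN1 without any 1 library other than scrambled replicate 3. The calls of PFN1 and TMSB10 were lost with the library total and after quantile normalization. With the library total 6 genes of this list were called lower and 11 higher.

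Crosslinkers and non-muscle myosins were lower in 7 of 16 tested, with 1 higher, beside a background of 24.7% lower and 19.7% higher. The gene called higher was MYL12B, already counted among the paralogs, and ACTN1 was already counted among the MRTF-SRF targets. Under quantile normalization 4 were lower and 2 higher, and with the library total 4 were lower and 4 higher. LCP1, the bundling protein L-plastin, went from 14.5, 11.1 and 10.9 to 3.11, 2.46 and 2.90 (-1.78 ± 0.14, adjusted p = 2.8e-05), and shares 19.0% of its exon bases with CPB2-AS1. MYL6, the essential myosin light chain, went from 458, 488 and 519 to 184, 146 and 168 (-1.55 ± 0.11, adjusted p = 1.5e-05) and shares 16.3% with SMARCC2. Set beside MYL12B, the light chain genes parted: the ratio of MYL12B to MYL6 was 0.279 to 0.303 in the scrambled and 0.952 to 1.36 in the DUSP6 siRNA libraries.

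**Figure D4:**
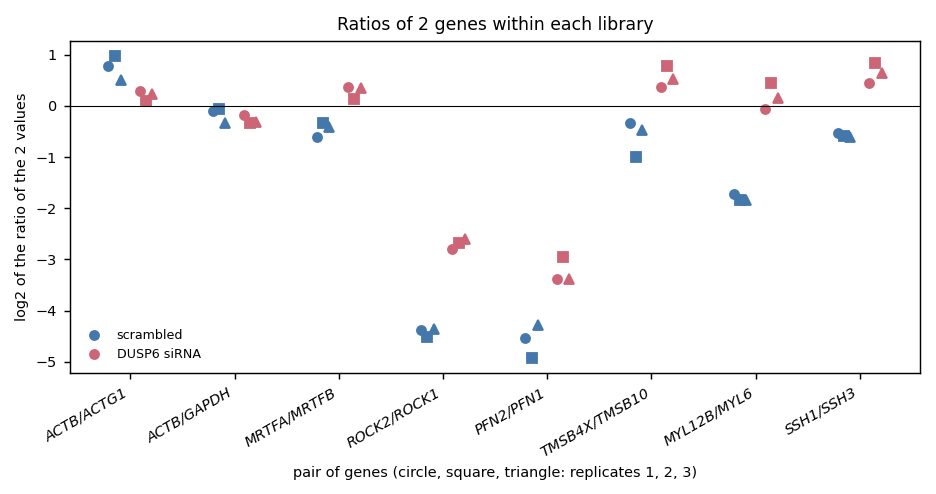
Log2 of the ratio of the normalized values of 2 genes within each library, scrambled in blue and DUSP6 siRNA in red, with marker shapes for the replicate. The 8 pairs shown were chosen from 11 after their values were seen. Among these 8 only ACTB/GAPDH overlaps between the groups, while TPM4/TPM3 and TPM1/TPM3, which are not shown, overlap as well.

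At focal adhesions, where vinculin sits, 8 of 20 tested genes fell, 1 rose and 11 were not called (median -0.16), beside a background of 24.7% lower and 19.7% higher. All 4 tensins, which link integrins to actin, fell. TNS1 went from 50.9, 34.2 and 22.7 to 3.78, 2.79 and 3.32 (-3.04 ± 0.25, adjusted p = 3.6e-05). TNS3 went from 76.0, 50.6 and 49.5 to 24.3, 15.9 and 20.7 (-1.48, adjusted p = 0.000436), and TNS4 from 7.42, 4.48 and 3.65 to 0.768, 0.416 and 0.649 (-1.90, adjusted p = 0.000167). TNS2 differed by -0.95 (adjusted p = 0.000664). The tensins kept this direction under each scaling. ITGAV, the integrin alpha V subunit, rose (0.43, adjusted p = 0.0162), a call lost without DUSP6 siRNA replicate 2 or scrambled replicate 1.

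ACTB is widely used to normalize other measurements, so 15 common reference genes were set beside it. Of these 8 fell, 2 rose and 5 were not called, beside a background of 24.7% lower and 19.7% higher. HPRT1 (-1.30), TUBB (-0.86), GAPDH (-0.73), PPIA (-0.63), PGK1 (-0.57), TBP (-0.51), SDHA (-0.51) and IPO8 (-0.45) fell, with limma adjusted p from 0.00033 to 0.0113. GAPDH had values of 2597, 2019 and 2633 in scrambled replicates 1 to 3 and 1511, 1382 and 1453 after DUSP6 siRNA. The within-library ratio of ACTB to GAPDH was 0.939, 0.962 and 0.791 in the scrambled and 0.880, 0.796 and 0.805 in the DUSP6 siRNA libraries. These ranges overlapped, unlike those of ACTB to ACTG1.

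B2M, the light chain of MHC class I, which the study used to normalize its qRT-PCR, rose most, from 340, 313 and 336 to 1898, 1765 and 1802 (2.46 ± 0.09). GUSB (0.98, adjusted p = 0.0101) rose too. YWHAZ (-0.20), RPLP0 (0.06), TFRC (0.13), RPL13A (0.26) and POLR2A (0.31) were not called. RPLP0 ranged from 403 to 1460 among the scrambled libraries, so its difference carried an SE of 0.38. Without scrambled replicate 2, RPLP0 (-0.47, adjusted p = 0.045) and YWHAZ (-0.34, adjusted p = 0.0324) were called lower. The directions of YWHAZ and RPLP0 turned under other scalings or tests. With the library total 5 reference genes were called lower, without PGK1, TBP and IPO8, and 5 higher. The GUSB call was lost without DUSP6 siRNA replicate 2.

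**Figure D5:**
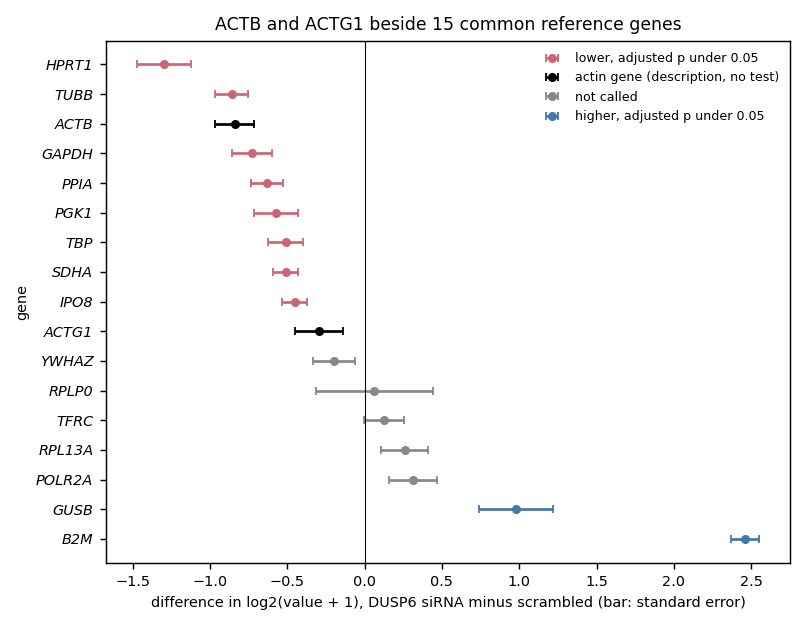
Difference in log2(value + 1), DUSP6 siRNA minus scrambled, with standard errors, of 15 common reference genes and, in black and untested, ACTB and ACTG1. ACTB at -0.84 lies between TUBB and GAPDH, and B2M lies at 2.46.

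Markers were checked for the labelled cell type and for others that the culture could hold. The luminal breast markers were high, with summed values of 3914 to 5347 in the scrambled and 2641 to 2874 in the DUSP6 siRNA libraries, and PIP was below the filter. Of 8 tested, 7 fell, among them KRT19 (-1.81), SPDEF (-1.05) and ERBB2 (-0.99, with 5.53% of its exon bases shared with MIEN1). Myoepithelial and basal markers, whose cells are rich in contractile actin, summed to 13.1 to 22.2 and 5.63 to 7.52 over 6 genes. TP63 and MYLK of these fell, and the defining keratins KRT5 and KRT14 stayed under 1 in every library. At that low level KRT14 went the other way, from 0.0298, 0.0575 and 0.0362 to 0.404, 0.281 and 0.386. Fibroblast and smooth muscle markers summed to 85.0 to 109 and 166 to 197 over 8 genes, nearly all of it COL1A1 (0.90), while COL1A2, COL3A1, LUM, PDGFRA and PDGFRB were below the filter. Immune and endothelial markers summed to 4.87 to 5.86 and 3.66 to 5.78 over 5 genes, nearly all of it CD68. The luminal and basal sums were lower and the fibroblast sum was higher where ACTB, SRF, TPM4 and FLNA were lower. Their part in these values was not tested.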

How the data were processed

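RNA of 6 MDA-MB-453 libraries (TruSeq Stranded mRNA, NovaSeq) was aligned by the authors to hg38 with Rsubread 2.0.0 and assigned to RefSeq genes with default settings. The submitters' processing notes also name edgeR and bcl2fastq. The authors deposited a table of normalized signal on a linear scale, with a value for each gene in each library. All values were whole reads times 1 step per library (within 0.01 read), and the steps matched TMM factors to 4.44e-16.

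Values were taken as log2(value + 1), filtered at a mean of 1 or more and compared with limma 3.58.1 (R 4.3.3, eBayes with a trend, Benjamini-Hochberg, adjusted p under 0.05). edgeR 4.0.16 on the recovered reads was an alternative, beside other pseudocounts, filters, scalings, a replicate block and leaving out each library. Scaling to the library total and merged exon lengths were added after seeing the data. Both tests were checked on simulated data with 200 changed genes, evenly up and down, and the same spread in both groups. These data had far more called genes and unequal spread, which that check does not cover.

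The members, gene lists and tests were chosen with earlier results of these data known. Some genes stand in more than 1 list, among them ACTN1, MYH9, MYL12B, TLN1, ZYX, ITGB1 and ITGA5, so the list counts are not all of separate genes. Named were all members, DUSP6, the tested paralogs, the reference genes, up to 3 called genes per list and direction with the largest difference, and the 5 genes nearest to ACTB. ARHGEF1, CCN1, DIAPH3, FOS, LPP, MCL1, MRTFA, PFN1, RHOC, ROCK1, ROCK2, SSH1, SSH3, TMSB10, TNS2 and the ratio pairs were chosen after their values were seen. Genes given with values that share over 5% of exon bases with a neighbour are marked. Positions and promoters came from RefSeq on GRCh38, and transcript lengths from GENCODE 44. Some genes and 1 list are not reported here, and the list counts leave them out.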

Additional observations from a re-analysis of the deposited data

How the results depend on the processing

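The 9 genes, DUSP6, the list counts and the other named genes were recomputed under each alternative. With the library total 1800 genes were called lower and 4777 higher (3179 and 2540 with TMM), 3 of the 9 genes lower, ACTB at -0.61, SRF at -0.53, TPM1 at -0.16 and CNN2 at 0.24. In that setting 2 paralogs, 4 other MRTF-SRF targets, 1 immediate early gene and 1 cofactor were higher. So were 11 assembly, 4 crosslinker, 5 focal adhesion and 5 reference genes. Lower there were 3 other MRTF-SRF targets, 1 immediate early gene, 1 cofactor, 6 assembly, 4 crosslinker, 8 focal adhesion and 5 reference genes. MRTFA (0.092) and YWHAZ (0.0329) changed sign. Quantile normalization gave ACTB at -0.49, FLNA at -0.30, CNN2 at 0.12 and 3 of the 9 lower. It called 1 paralog, 3 MRTF-SRF targets, 1 immediate early gene, 1 cofactor, 10 assembly, 2 crosslinker, 3 focal adhesion and 5 reference genes higher. Lower were 3 MRTF-SRF targets, 1 immediate early gene, 1 cofactor, 8 assembly, 4 crosslinker, 8 focal adhesion and 7 reference genes. YWHAZ was at 0.0549. For the remaining settings only some of the list counts are given. A further scaling, by the median of ratios, gave 3214 genes lower and 2551 higher, with 5 of the 9 lower. Without a filter 3 of the 9 and 1 immediate early gene were lower, and a mean of at least 10 left 1639 genes higher. Without a trend 0 cofactors were higher. With edgeR, RPLP0 was at -0.086.

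Deviations of same-numbered libraries correlated at 0.005, 0.087 and -0.076 over genes, and those of differently numbered libraries at -0.091 to 0.132. No pairing by replicate number was thus seen over all genes. A correlation over all genes cannot exclude pairing in some of them, and whether the libraries were handled in pairs was not tested. The block moved single calls both ways: FOS and CCN1 were called lower with it, MCL1 was called higher, and ELK4 lost its call. With the replicate block 3096 genes were lower and 2495 higher, 5 of the 9 were lower, 4 immediate early genes were lower and 1 higher, and 0 cofactors were higher.

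Leaving out 1 library in turn gave 1574 (without DUSP6 siRNA replicate 2) to 3183 genes higher and 3 to 6 of the 9 genes lower, 3 without DUSP6 siRNA replicate 2 or 3. Higher were 0 to 1 MRTF-SRF targets, 0 to 1 immediate early genes, 0 to 1 cofactors, 3 to 11 assembly, 0 to 2 focal adhesion and 1 to 3 reference genes, with the lowest of the last 3 without DUSP6 siRNA replicate 2, and 1 to 3 immediate early genes were lower. RPLP0 ran from -0.471 (without scrambled replicate 2, called lower) to 0.4569, and CNN3 from -0.0173 (without scrambled replicate 3) to 0.2004. With 2 libraries left in a group, the spread is carried mostly by the other group. Of the other results for single named genes outside the 9, 890 stayed on their side of the threshold, 38 lost a call and 18 gained one. The cause of these changes was not tested.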

Other observations

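The genes whose course over the 6 libraries was nearest to that of ACTB were not actin-binding genes. Likeness was the root mean square difference of log2 values, each gene centred on its own mean, over all 12862 tested genes, and the 5 nearest were BMP4 (0.0322), CENPU (0.0417), ING2 (0.0436), FANCB (0.0477) and FUBP1 (0.0508). BMP4, a secreted growth factor, had normalized values of 67.7, 56.4 and 58.3 in scrambled replicates 1 to 3 and 37.5, 31.9 and 33.8 after DUSP6 siRNA, and so was highest and lowest in the same libraries of each group as ACTB. CENPU, a centromere protein, had 119, 99.9 and 110 against 63.7, 54.8 and 58.4, and shares 14.9% of its exon bases with PRIMPOL. FUBP1, a single-stranded DNA-binding regulator, had 185, 153 and 156 against 93.7, 85.4 and 90.6. The log2 differences of the 5 lay between -0.88 and -0.78, beside -0.84 for ACTB. The 5 were picked for likeness over these same 6 libraries. Their order and size therefore follow from the choice, and nothing is read from them.

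By the same measure SRF was the nearest of the 8 other genes described here, at 0.117 and rank 216. FLNA was at rank 1399, TPM4 at 1653, VCL at 2403, TPM1 at 2741, ACTG1 at 3018, CNN2 at 6221 and TPM3 at 9780. The SD of log2 values was larger in the scrambled than in the DUSP6 siRNA libraries for 7 of the 9 genes, with medians of 0.32 and 0.07, beside medians of 0.17 and 0.08 over all tested genes. The ratio of ACTB to PPIA, 1.99, 1.90 and 1.99 in the scrambled and 1.84, 1.59 and 1.66 in the DUSP6 siRNA libraries, did not overlap between the groups, unlike that of ACTB to GAPDH.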
